A study of Mus musculus with 21 samples.

Results

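Ribosome biogenesis and RNA polymerase I were described here through 38 genes for nucleolar assembly factors, found in the deposited count table by matching each mouse Ensembl identifier to a listed symbol. All 38 were present among 55487 genes, and all 38 were among the 14741 genes with enough counts to be tested. Ribosomes are built in the nucleolus: RNA polymerase I copies the ribosomal DNA into a long precursor RNA, small nucleolar ribonucleoproteins (snoRNPs) guide its chemical modification, and assembly factors cut and fold it with ribosomal proteins into the small (40S) and large (60S) subunits. The pathway is known for tracking growth, and its output limits how much protein a cell can make. Microglia are the resident macrophages of the brain and are known to make many secreted and surface proteins once activated.

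The study measured RNA of striatal microglia from male mice aged 8 to 10 weeks that came from control pregnancies (CON) or pregnancies with maternal immune activation (MIA, an immune stress before birth). The labels state neither the mouse strain nor how the activation was induced. Mice received saline (SAL) or lipopolysaccharide (LPS, a bacterial cell wall component that activates innate immunity) into the peritoneum, at 4500 endotoxin units per gram of body weight for LPS, and cells were taken 18 hours later. Cells were sorted as live, CD11b+, CD45-low and P2RY12+, and libraries were made from 5 ng of RNA by an oligo-dT primed Smart-Seq2 protocol with 9 PCR cycles. The groups held 6 CON_SAL, 5 CON_LPS, 5 MIA_SAL and 3 MIA_LPS libraries of batch 1. A further MIA_LPS library was the only one of batch 2, and 1 MIA_SAL library whose title marks it as excluded was left out. The second number in the labels' ID field (called the ID number here) is shared by saline and LPS libraries of the same maternal group. It is also shared within groups, by MIA_SAL replicates 1 and 2, MIA_SAL replicates 3 and 4, and CON_SAL replicates 3 and 4. Its meaning is not stated, and the main model treats these libraries as independent. Nothing else in the labels ties animals to a litter, so p-values reflect sample-to-sample spread, part of which may be technical or shared within a litter. In bulk RNA, fewer cells of a type and less RNA per cell cannot be told apart.

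Batch 1 libraries held 9.85 to 19.0 M estimated counts each (M, mega), and counts from ribosomal RNA genes took 50.5 to 53.1% of the total as group means. Levels are given as CPM, a gene's count scaled to a common library total, after TMM scaling, which corrects for differences in library composition, unless a summed list is named. The sort antigens' genes Itgam (CD11b) and Ptprc (CD45) did not pass the test after LPS. P2ry12, by contrast, fell by 3.39 on the log2 scale in control offspring and by 3.33 in MIA offspring, although the sort kept cells with the protein. The microglial genes Tmem119 and Cx3cr1 fell as well in both maternal groups. The summed level of 8 monocyte markers rose from 3.22 to 5.79 CPM over CON_SAL libraries to 19.1 to 53.2 CPM over CON_LPS libraries. It ran from 2.85 to 7.26 CPM over MIA_SAL and from 18.8 to 31.1 CPM over MIA_LPS libraries. Of the 7 measured, 6 rose and Ccr2 fell in both maternal groups. None of the 9 lymphocyte markers had enough counts to be tested, and Cd3e was at 0 in all CON_SAL, CON_LPS and MIA_LPS libraries of batch 1. The list's sum was not always at 0. It reached at most 0.404 CPM in CON_SAL, 0.958 in CON_LPS, 0.762 in MIA_SAL and 0.692 in MIA_LPS libraries.

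Promoter sequence was examined because Myc, a transcription factor known to drive ribosome production, binds the E-box letters CACGTG as a dimer with Max. RefSeq start-site windows (build GRCm38.p6, 250 bases before to 50 bases after the start) were available for 34 of the 38 members. CACGTG, which reads the same on both strands, was found in the window of 8 of those 34 (23.5%), against 11.7% of 9840 tested genes with a window and 7.15% of all 32851 windows. The letters CCGGAAGT, a core known for binding ETS-family factors, were found on either strand in 8 of 34 members (23.5%), against 9.39% of tested genes and 3.89% of all windows. Among 106 other ribosome assembly genes with a window the shares were 18.9% for CACGTG and 28.3% for CCGGAAGT. A motif known for NRF1 and one for NF-kappa-B, searched on both strands, were each in 0 of the 34 windows, against 2.43% and 0.559% of tested genes. Of the members, 14 held at least 1 of these motifs and 2, Utp4 and Rrn3, held both. The examples below are shown because they carry the motifs near the start of members described in the results. The motif stands in capitals, sequences run 5′ to 3′ on the gene's strand, and windows that reach into the transcript are limited to 30 bases.
Ccdc86 (chr19:10949226-10949255, minus strand): ctacagaggctaCACGTGagccatggatac
Nop2 (chr6:125131786-125131865, plus strand): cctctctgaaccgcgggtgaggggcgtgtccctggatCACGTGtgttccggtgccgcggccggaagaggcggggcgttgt
Rrn3, distal (chr16:13780449-13780526, plus strand): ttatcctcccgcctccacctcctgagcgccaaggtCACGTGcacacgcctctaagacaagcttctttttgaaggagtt
Rrn3, proximal (chr16:13780614-13780693, plus strand): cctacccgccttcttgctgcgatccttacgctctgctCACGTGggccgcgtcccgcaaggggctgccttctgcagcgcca
Utp4 (chr8:106893643-106893672, plus strand): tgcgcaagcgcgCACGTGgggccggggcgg
Mybbp1a (chr11:72441347-72441376, plus strand): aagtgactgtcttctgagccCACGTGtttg
Polr1c (chr17:46248055-46248124, minus strand): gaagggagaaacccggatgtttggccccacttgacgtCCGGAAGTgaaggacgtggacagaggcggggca
Wdr74 (chr19:8735775-8735826, plus strand): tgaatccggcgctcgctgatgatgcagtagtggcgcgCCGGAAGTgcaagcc
Nhp2 (chr11:51619738-51619767, plus strand): ccacttgaaaacCCGGAAGTgatgtcggag
Gar1 (chr3:129831397-129831477, minus strand): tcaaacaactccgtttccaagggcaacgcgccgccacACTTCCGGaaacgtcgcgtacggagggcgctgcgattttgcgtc

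The E-box lies 60 bases before the start in Nop2 and 215 and 48 bases before it in Rrn3, and it lies inside the first bases of the transcript in Ccdc86, Utp4 and Mybbp1a. A match is a description of sequence and not evidence of binding. The 8 members with CACGTG had a median log2 fold change of 1.02 after LPS in control offspring, and the 26 without it a median of 1.17.

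The first comparison asked how the members responded to LPS in control offspring. Of them, 35 rose, none fell, and the median log2 fold change over all 38 was 1.12, against a median of -0.003 over all genes tested. By edgeR's quasi-likelihood test with Benjamini-Hochberg adjustment over all tested genes, 35 members were called higher, against 23.3% of all genes. No member was called lower, against 21.3% of all genes, so that 44.6% of all genes passed in 1 direction or the other. The change was at least 2-fold for 23 of the members called, against 10.6% of all genes. In 32 members every LPS library lay above every saline library, against 15.1% of all genes, and in none did the LPS libraries all lie below, against 13.9%. The 3 members that did not pass were Ubtf, Rrp1b and Gar1. The list was chosen with earlier results of these data known, so these counts describe it and are not independent support.

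In MIA offspring 35 members again rose after LPS and none fell, with a median log2 fold change of 1.29 against 0.02 over all genes. By the same test 20.8% of all genes were called higher, 18.3% lower and 39.1% in either direction. The change was at least 2-fold for 27 members, against 10.8% of all genes, and 34 members had LPS libraries entirely above saline libraries, against 18.5% of all genes. None lay entirely below, against 18% of all genes. Ubtf, Rrp1b and Bysl did not pass. In all, 34 members passed in both maternal groups, and 32 were without overlap in both. The shares of all genes that did so in both groups were not computed.

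**Figure D1:**
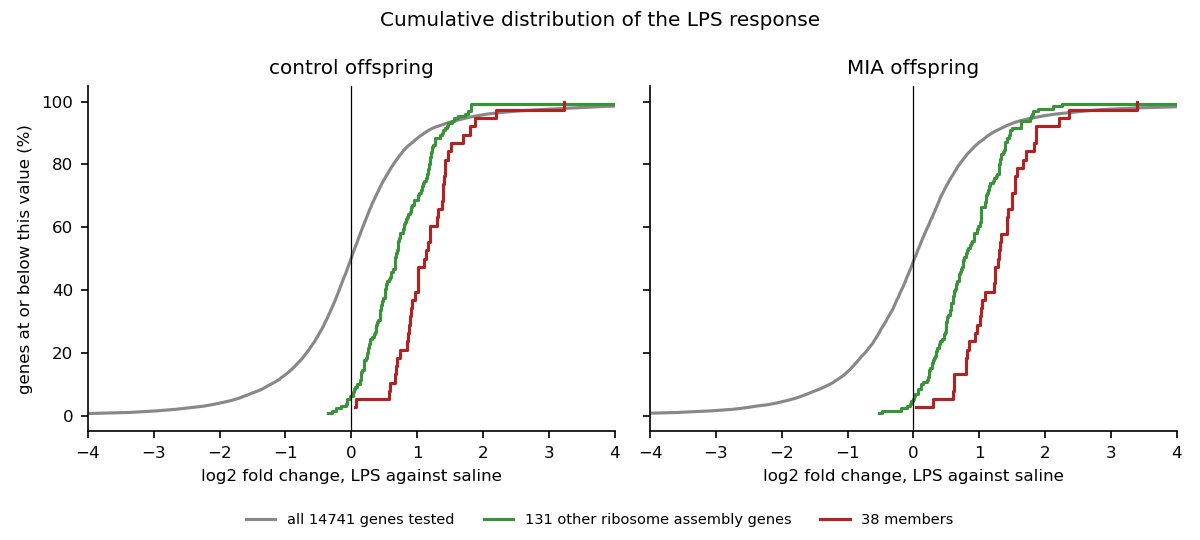
Cumulative share of genes (percent, vertical) at or below each log2 fold change of LPS against saline (horizontal) in control and MIA offspring, for all 14741 genes tested, 131 other ribosome assembly genes and the 38 members. The members' curve lies to the right, with medians of 1.12 and 1.29, and its lowest value is 0.06 in control and 0.04 in MIA offspring; values beyond 4 in either direction are outside the axis.

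The summed level of the 38 members, as CPM of the total count, ran from 650 to 776 over the 6 CON_SAL libraries and from 1446 to 1723 over the 5 CON_LPS libraries. Over the 5 MIA_SAL libraries it ran from 668 to 780, and the 3 MIA_LPS libraries gave 1337, 1575 and 1916. Saline and LPS libraries did not overlap in either maternal group, and the spread was widest after LPS in MIA offspring. MIA_LPS replicate 3 was the highest of its group for 35 of 38 members, and replicate 2 was the lowest for 24. Without MIA_LPS replicate 3, 32 members were called higher in MIA offspring by edgeR, against 16.4% of all genes. MIA_LPS replicate 2 had a summed astrocyte marker level of 235 CPM, against 118 and 120 CPM in the other two libraries. The part of that difference in the members' values was not tested.

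The size of the rise in MIA offspring depended on single libraries for several members. Without MIA_LPS replicate 3 the log2 fold change in MIA offspring was 0.79 for Nop58, 0.65 for Nop2, 0.61 for Wdr12 and 0.56 for Noc2l, each more than 1.5 times smaller than with all libraries and still past the threshold. Dkc1, Nop10 and Gar1 did not pass without that library. With no batch term the batch 2 library enters the MIA_LPS mean. The values were then 2.74 for Rrp9, 3.59 for Rrp12, 1.65 for Pes1 and 1.29 for Noc2l, each larger than with the batch term. Not all members moved that way, as Nop10 in MIA offspring was 0.48 in place of 0.62.

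**Figure D2:**
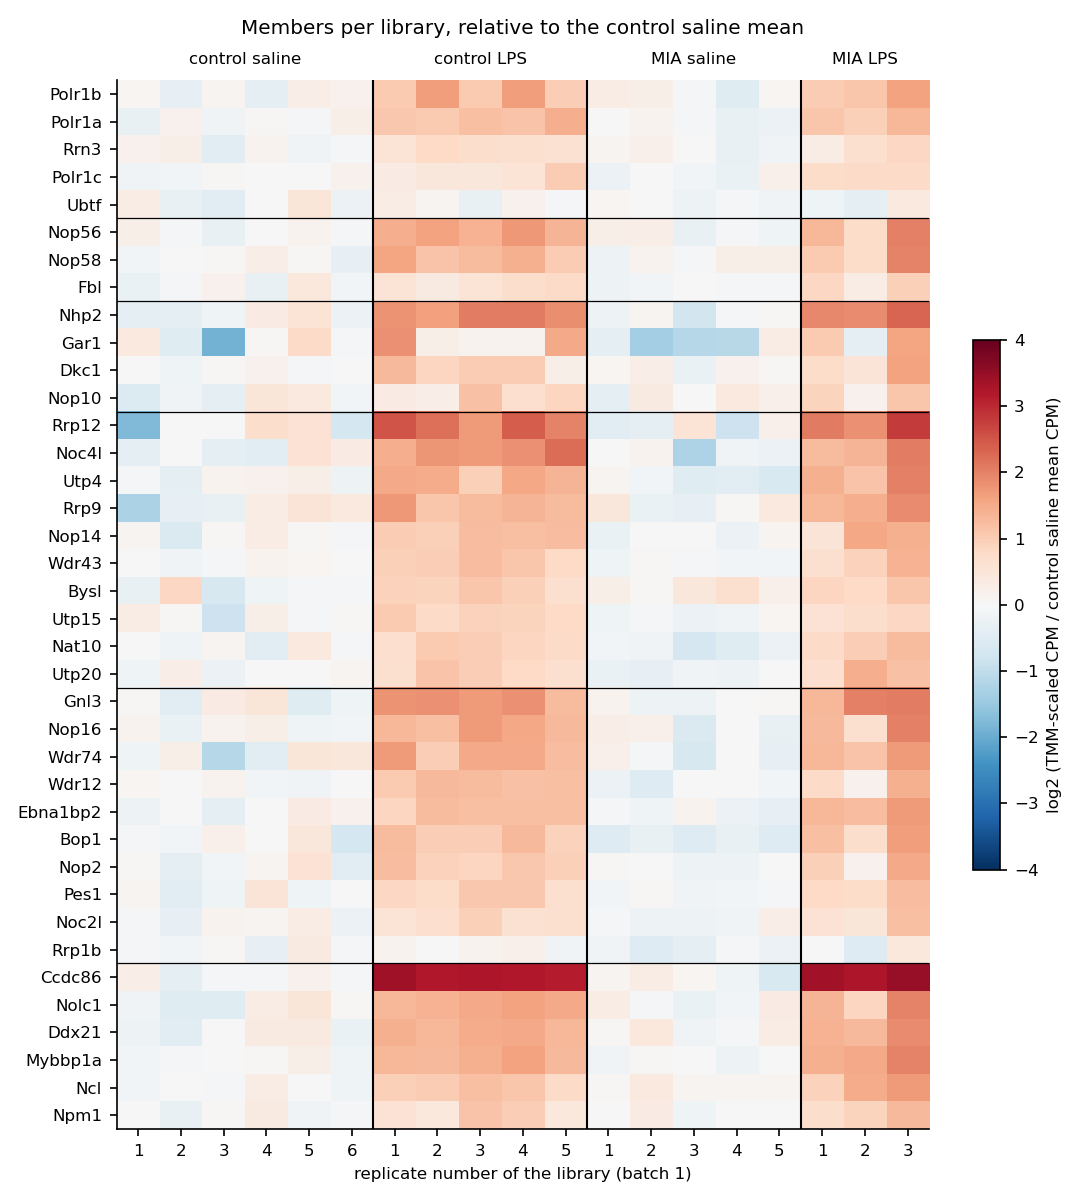
Each cell is the log2 ratio of a member's TMM-scaled CPM in 1 library to its mean over the CON_SAL libraries, with members in rows by role and the 19 libraries of batch 1 in columns by group. The LPS columns of both maternal groups are red in nearly all rows, Ccdc86 is the darkest row, and Ubtf and Rrp1b stay near white.

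Of the polymerase genes, Polr1a, the largest subunit of RNA polymerase I, had 17.8, 21.6 and 25.5 CPM as the lowest, median and highest of the 6 CON_SAL libraries. The 5 CON_LPS libraries had 46.4, 45.3, 50.1, 48.3 and 59.6 CPM. All LPS libraries lay above all saline libraries, at 2.28-fold (log2 1.19 ± 0.12 SE, edgeR adjusted p = 7.7e-09). In MIA offspring the saline libraries had 21.8, 23.9, 20.8, 18.0 and 18.6 CPM and the LPS libraries 47.7, 42.6 and 54.7 CPM, again apart (log2 1.23 ± 0.14 SE, edgeR adjusted p = 1.16e-07). Polr1b, the second-largest subunit, rose from 6.36, 8.91 and 10.1 CPM (lowest, median and highest of CON_SAL) to 17.4, 26.5, 17.3, 26.9 and 16.5 CPM over the 5 CON_LPS libraries. Its groups were apart as well, and Polr1b rose by log2 1.31 ± 0.18 in control and 1.24 ± 0.21 in MIA offspring.

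Polr1c, a subunit shared by RNA polymerases I and III, changed less, by log2 0.58 ± 0.15 in control and 0.81 ± 0.18 in MIA offspring, and its groups did not overlap in either. Rrn3 (TIF-IA), the factor that makes the polymerase competent to initiate, rose by log2 0.66 ± 0.13 and 0.62 ± 0.15, from a CON_SAL median of 22.8 CPM to a CON_LPS median of 34.7 CPM. Ubtf (UBF), which binds along the ribosomal DNA repeats and keeps them open, did not pass. Its CON_SAL libraries had 20.7, 25.9 and 39.1 CPM (lowest, median, highest) and its CON_LPS libraries 34.4, 30.2, 22.9, 32.0 and 27.1 CPM, so the groups overlapped throughout. The log2 fold change of Ubtf was 0.06 ± 0.16 (edgeR adjusted p = 0.796) in control and 0.04 ± 0.19 (edgeR adjusted p = 0.896) in MIA offspring. Among the 5 polymerase genes 4 rose in each maternal group, with class medians of 0.66 and 0.81.

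The box C/D snoRNPs place methyl groups on ribosomal RNA, and all 3 of their members rose in both maternal groups. Nop56, a scaffold protein of the particle, had 33.5, 40.4 and 47.8 CPM (lowest, median, highest) after saline and 113, 126, 108, 135 and 104 CPM after LPS in control offspring. No library overlapped, and the log2 fold change was 1.52 ± 0.16 (edgeR adjusted p = 2.21e-08). In MIA offspring Nop56 had 48.2, 49.6, 33.5, 39.0 and 36.7 CPM after saline and 103, 68.4 and 165 CPM after LPS, a wide spread whose lowest library still lay above all saline libraries. Nop58, its partner scaffold, rose by log2 1.30 ± 0.17 and 1.28 ± 0.20. Fbl (fibrillarin), the methyltransferase itself, rose by smaller amounts, 0.59 ± 0.14 and 0.80 ± 0.17, and its control groups overlapped.

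The box H/ACA snoRNPs convert uridine to pseudouridine. Nhp2, an RNA-binding core protein of the particle, changed most among its 4 members, from 9.01, 10.4 and 17.5 CPM (lowest, median, highest of CON_SAL) to 41.6, 37.1, 49.0, 49.7 and 42.8 CPM in CON_LPS. This was 3.69-fold in control offspring (log2 1.88 ± 0.17, edgeR adjusted p = 1.31e-09). MIA_SAL libraries had 10.2, 12.8, 7.08, 11.3 and 12.2 CPM and MIA_LPS libraries 45.3, 43.8 and 59.8 CPM, a 4.62-fold change (log2 2.21 ± 0.20, edgeR adjusted p = 2.43e-09). Saline and LPS libraries of Nhp2 were far apart in both. Dkc1 (dyskerin), the pseudouridine synthase, rose by log2 0.92 ± 0.18 and 0.97 ± 0.21. Without MIA_LPS replicate 3 the Dkc1 value in MIA offspring was 0.54 (edgeR adjusted p = 0.0501).

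Nop10, a small core protein of the same particle, rose by log2 0.70 ± 0.21 in control offspring. In MIA offspring its value of 0.62 ± 0.25 was at the threshold (edgeR adjusted p = 0.0490), was not called by DESeq2 (adjusted p = 0.0768), and became 0.39 without MIA_LPS replicate 3. Its saline and LPS libraries overlapped in both maternal groups. The Nop10 call in MIA offspring was also lost with the ID number as a block (0.55, edgeR adjusted p = 0.0783) or as limma's random block (adjusted p = 0.0542). RLE or upper quartile scaling lost it too, as did no batch term (edgeR adjusted p = 0.145). It was lost with the excluded library kept (edgeR adjusted p = 0.0669) and with a minimum count of 30 (edgeR adjusted p = 0.0515). The same held without any 1 of MIA_LPS replicates 1 and 4, MIA_SAL replicates 1, 3 and 5, CON_SAL replicates 2 and 6, and CON_LPS replicates 4 and 5. Gar1 had the lowest level per length of all members and varied widely between libraries. It had 0.278, 1.04 and 1.75 CPM (lowest, median, highest) after saline and 3.68, 1.20, 1.14, 1.14 and 2.96 CPM after LPS in control offspring, with overlap. Its log2 fold change was 0.97 ± 0.45 (edgeR adjusted p = 0.0861) in control and 1.54 ± 0.55 (edgeR adjusted p = 0.0292) in MIA offspring. Without MIA_LPS replicate 3 the latter was 1.04 (edgeR adjusted p = 0.230). It was 1.31 with the ID number as a block (edgeR adjusted p = 0.0501) and 1.40 with it as limma's random block (adjusted p = 0.0602). The Gar1 value in MIA offspring also did not pass without MIA_LPS replicate 1 or MIA_SAL replicate 2, 3 or 4. In control offspring Gar1 passed without CON_SAL replicate 5 (1.18, edgeR adjusted p = 0.0462).

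The small subunit processome and 40S assembly factors assemble on the nascent precursor and cut out the 18S region. All 10 rose in control offspring and 9 of 10 in MIA offspring, with medians of 1.08 and 1.32. Rrp12, an export and maturation factor, had 0.959, 3.27 and 5.29 CPM (lowest, median, highest) after saline and 18.7, 15.1, 10.7, 17.5 and 13.0 CPM after LPS in control offspring. Its groups did not overlap, and it was 4.61-fold higher (log2 2.21 ± 0.31, edgeR adjusted p = 3.39e-06). In MIA offspring Rrp12 went from 2.36, 2.57, 4.79, 1.86 and 3.73 CPM to 13.7, 11.6 and 22.6 CPM (log2 2.37 ± 0.36, edgeR adjusted p = 1.47e-05). Noc4l, which works with Nop14 in 40S maturation, rose by log2 1.81 ± 0.24 and 1.83 ± 0.28.

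Nop14 itself rose by 1.14 ± 0.17 and 1.30 ± 0.20 on the log2 scale. The WD-repeat protein Utp4, part of the processome's first-binding module, rose by 1.39 ± 0.18 and 1.86 ± 0.21. Its module partners Utp15 (0.89 ± 0.15 and 0.80 ± 0.18) and Wdr43 (1.02 ± 0.12 and 1.10 ± 0.14) rose by smaller amounts. Rrp9, a protein of the U3 snoRNP, rose by 1.37 ± 0.24 and 1.49 ± 0.29. Nat10, which acetylates cytidines of 18S RNA, had values of 0.87 ± 0.15 and 1.33 ± 0.18, and the large scaffold Utp20 had 0.85 ± 0.14 and 1.32 ± 0.16.

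Bysl (bystin), a late 40S factor, rose in control offspring by log2 0.91 ± 0.20 (edgeR adjusted p = 0.00064) with overlap. That overlap came from CON_SAL replicate 2 at 7.88 CPM, while the other 5 CON_SAL libraries had 2.85 to 4.25 CPM. In MIA offspring the LPS libraries (8.02, 7.80 and 9.70 CPM) lay above the saline libraries (5.25, 4.66, 6.07, 7.01 and 5.12 CPM), and the value of 0.60 ± 0.24 did not pass (edgeR adjusted p = 0.0504). With no batch term the control value did not pass (edgeR adjusted p = 0.0818) and the MIA value was 1.82, since the batch 2 library then enters the mean. The MIA value also passed with the ID number as a block (0.60, edgeR adjusted p = 0.0351), with the excluded library kept (edgeR adjusted p = 0.0411), with totals that leave out ribosomal RNA genes (edgeR adjusted p = 0.0481) and with limma's sample weights (adjusted p = 0.0415). It passed as well without CON_SAL replicate 2 (edgeR adjusted p = 0.0168), CON_SAL replicate 3 or MIA_SAL replicate 4, so that its call depends on the setting. Bysl also overlaps the exons of Ccnd3 on the opposite strand. Ccnd3 had a mean of 107 CPM after saline and 45.6 CPM after LPS in control offspring, and since Smart-Seq2 does not mark strand, reads from the overlap cannot be told apart.

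**Figure D3:**
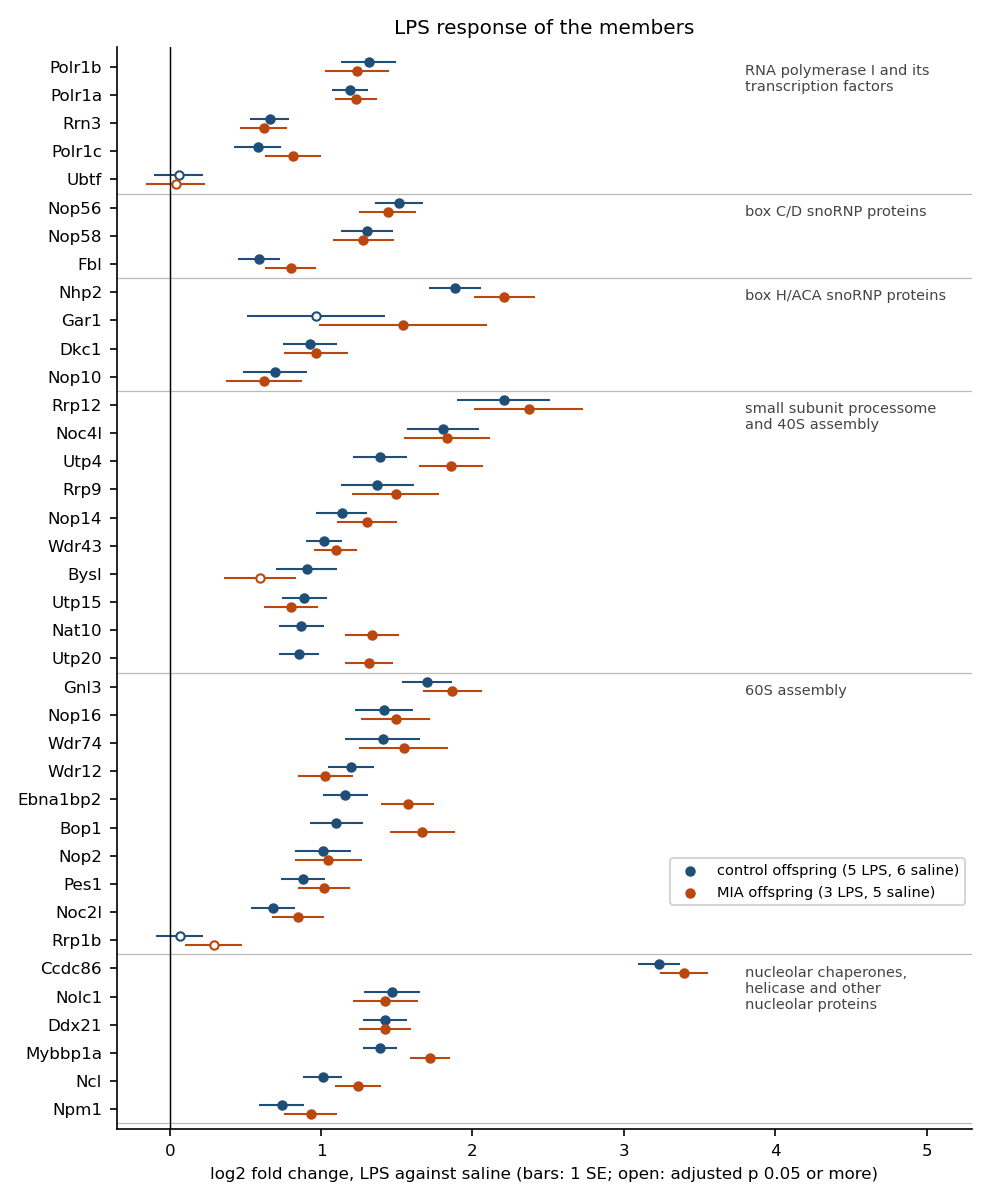
Log2 fold change of LPS against saline (horizontal, bars 1 SE) for each member, by role, in control and MIA offspring. Filled points passed an adjusted p of 0.05 and open points did not; Ccdc86 lies at 3.23 and 3.40, and Ubtf and Rrp1b lie near 0.

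Among the 60S assembly factors, 9 of 10 rose in each maternal group, with medians of 1.13 and 1.27. Gnl3 (nucleostemin), a nucleolar GTPase, had 14.4, 19.3 and 27.9 CPM (lowest, median, highest) after saline and 70.5, 70.9, 65.2, 70.6 and 48.2 CPM after LPS in control offspring. The groups were apart, with a log2 fold change of 1.70 ± 0.17 (edgeR adjusted p = 5.04e-09). Gnl3 had 22.2, 17.5, 17.4, 20.3 and 20.8 CPM in MIA_SAL and 50.8, 80.6 and 83.3 CPM in MIA_LPS libraries (log2 1.87 ± 0.19, edgeR adjusted p = 2.53e-08). Nop16 and Wdr74, early and intermediate 60S factors, rose by log2 1.42 ± 0.19 and 1.41 ± 0.25 in control offspring.

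Pes1, Bop1 and Wdr12 form one complex, PeBoW, that is needed to process the 32S precursor. In control offspring Wdr12 rose by log2 1.20 ± 0.15, Bop1 by 1.10 ± 0.18 and Pes1 by 0.88 ± 0.14. In MIA offspring the values were 1.03 ± 0.18, 1.67 ± 0.21 and 1.02 ± 0.17, so all 3 subunits rose in both. Bop1 had 6.13, 7.14, 6.07, 7.08 and 6.12 CPM in MIA_SAL against 5.34, 8.47 and 12.1 CPM as the lowest, median and highest of CON_SAL.

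Ebna1bp2, another early 60S factor, rose by 1.16 ± 0.15 and 1.57 ± 0.17. Nop2, a methyltransferase of 28S RNA, rose by 1.01 ± 0.19 and 1.05 ± 0.22, and Noc2l, a pre-60S factor, by 0.68 ± 0.14 and 0.85 ± 0.17. Rrp1b did not pass, at 0.07 ± 0.16 in control (edgeR adjusted p = 0.765) and 0.29 ± 0.19 in MIA offspring (edgeR adjusted p = 0.232). Its CON_LPS libraries (16.1, 14.7, 16.0, 16.7 and 13.2 CPM) lay within the CON_SAL range of 11.7 to 18.8 CPM. Without MIA_LPS replicate 2 the value in MIA offspring was 0.51 and passed (edgeR adjusted p = 0.0320).

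The 6 other nucleolar proteins all rose in both maternal groups, and none of them overlapped between saline and LPS. Ccdc86 (cyclon), a nucleolar coiled-coil protein first described as cytokine-induced in lymphocytes, changed most of the 38 members. It had 10.8, 13.3 and 16.5 CPM (lowest, median, highest) after saline and 145, 126, 129, 126 and 121 CPM after LPS in control offspring. The MIA_SAL libraries had 14.9, 16.9, 14.4, 12.2 and 8.98 CPM and the MIA_LPS libraries 141, 130 and 154 CPM. The highest saline library of Ccdc86 thus lay far below its lowest LPS library in both. The change was 9.41-fold in control (log2 3.23 ± 0.14, edgeR adjusted p = 1.76e-15) and 10.5-fold in MIA offspring (log2 3.40 ± 0.16, edgeR adjusted p = 2.94e-14). The log2 fold change of Ccdc86 ranked at percentile 97.8 of all genes tested in control offspring.

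Ccdc86 had fractional counts in 11 of 21 libraries, a sign of reads shared with another gene. It lies on chromosome 19 from 10941481 to 10949266 on the minus strand (GRCm38, GENCODE), and its exons overlap those of Ptgdr2 on the opposite strand. Ptgdr2 had means of 0.0420 CPM in CON_SAL and 0.221 CPM in CON_LPS, against 13.7 and 129.5 CPM for Ccdc86 itself. Ncl (nucleolin), an abundant RNA-binding protein of the nucleolus, had 82.8, 91.2 and 115 CPM (lowest, median, highest) in CON_SAL and 180, 189, 214, 200 and 157 CPM in CON_LPS. It was 2.01-fold higher (log2 1.01 ± 0.13, edgeR adjusted p = 3.72e-07) with no overlap. In MIA offspring Ncl had 96.4, 122, 101, 102 and 101 CPM after saline and 177, 261 and 306 CPM after LPS (log2 1.24 ± 0.15, edgeR adjusted p = 2.9e-07).

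Npm1 (nucleophosmin), a histone and ribosome chaperone, had 64.5, 77.8 and 103 CPM (lowest, median, highest) in CON_SAL and 120, 107, 176, 156 and 106 CPM in CON_LPS. It was 1.67-fold higher (log2 0.74 ± 0.15, edgeR adjusted p = 0.00019), and its groups did not overlap, although the lowest LPS libraries were close to the highest saline library. Ddx21, an RNA helicase that acts in both polymerase I and II transcription, rose by log2 1.42 ± 0.15 and 1.42 ± 0.17. Nolc1, a chaperone of snoRNPs, rose by 1.47 ± 0.18 and 1.43 ± 0.22. Mybbp1a, a nucleolar Myb-binding protein, rose by 1.39 ± 0.11 and 1.72 ± 0.13.

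**Figure D4:**
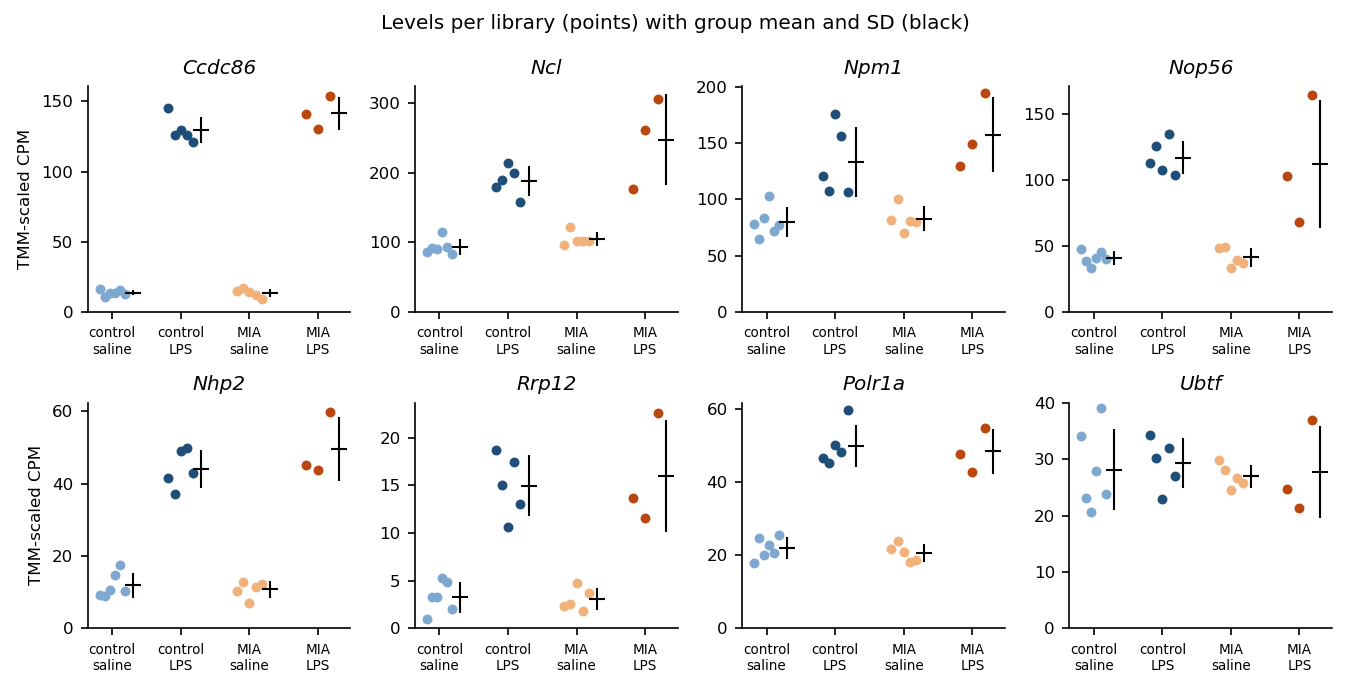
TMM-scaled CPM (vertical, from 0) in each batch 1 library of the 4 groups for 8 members, with the group mean and SD in black. Ccdc86 goes from at most 16.9 CPM after saline to at least 121 CPM after LPS, Npm1 shows a smaller gap, and Ubtf overlaps in all groups.

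Compared per kilobase of exon, the levels of the members at rest differed widely. The length used joins the exons of all annotated transcripts of a gene and may exceed that of the transcripts present. The ranks depend on this choice. For Ncl the length was 10188 bases, and its CON_SAL mean of 93.3 CPM was the highest of the members before division by length. Npm1 had the highest CON_SAL mean, 29.9 ± 4.94 CPM per kilobase (SD, n = 6), followed by Nop10 at 10.7 ± 3.11, Nhp2 at 10.4 ± 3.04, Nop56 at 10.0 ± 1.24 and Ncl at 9.16 ± 1.10. The last 4 of these do not differ beyond their spread. Gar1 was lowest at 0.602 ± 0.295 CPM per kilobase. Ccdc86 ranked 25 of 38 at rest, at 2.38 ± 0.349, and reached 22.4 ± 1.63 CPM per kilobase (SD, n = 5) after LPS in control offspring, below Npm1 at 49.9 ± 11.7, Nhp2 at 38.4 ± 4.62 and Nop56 at 28.6 ± 3.13.

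Of the 38 members, 6 (15.8%) carry snoRNA genes inside their gene body on the same strand: Nop56, Nop58, Wdr43, Gnl3, Ncl and Dkc1. Among protein-coding genes tested the share was 1.82%, and among other ribosome assembly genes 3.05%. In total 16 members overlap exons of another gene on the opposite strand. Some partners had higher means after LPS in control offspring. From CON_SAL to CON_LPS, Parp3 (beside Rrp9) went from 4.37 to 10.0 CPM and Mpp1 (Dkc1) from 11.7 to 18.9 CPM. Rmnd5b (Nhp2) went from 13.6 to 20.1 CPM and Idh3b (Nop56) from 27.7 to 38.1 CPM. Others were lower, among them Ccnd3 (Bysl), Carf (Wdr12), Spns2 (Mybbp1a) and Hsf2bp (Rrp1b). Strand is not marked, and the partners' share of these members' counts was not tested. The counting tool gave fractional counts, a sign of reads shared between genes, to 9 members. These were most frequent in Fbl (21 of 21 libraries), Npm1 and Bysl (20 each), Nop56 (19), Noc2l (16) and Ccdc86 (11), and the levels of all 6 are less certain. The labels do not say how reads were divided between near-identical copies.

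The second comparison set MIA against control offspring. No member was called higher or lower after saline, after LPS or in the difference between their LPS responses, and 0% of all genes were called in any of these 3 comparisons. At an unadjusted edgeR p under 0.05 there were 2 members after saline, 1 after LPS and 1 in the difference, and 414, 824 and 491 genes of 14741. No member's MIA and control libraries were apart, after saline (0.176% of all genes higher and 0.224% lower without overlap) or after LPS (1.28% and 1.4%). No alternative tried gave a call for a member in these comparisons, DESeq2 included. With the ID number as edgeR's block, MIA against control after saline or after LPS could not be estimated. The median log2 difference over the members was -0.07 after saline and 0.09 after LPS. After saline, Bop1 was lower in MIA offspring by log2 0.43 (95% interval -0.83 to -0.04), with an edgeR unadjusted p of 0.0282 and an adjusted p of 1. Nat10 was the other member after saline, with a value of -0.32 (95% interval -0.65 to 0.01), an edgeR unadjusted p of 0.0498 and an adjusted p of 1.

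After LPS, Ncl had a value of 0.40 in MIA against control offspring (95% interval 0.07 to 0.72), with an edgeR unadjusted p of 0.0150 and an adjusted p of 0.811. Its 3 MIA_LPS libraries (177, 261 and 306 CPM) overlapped the CON_LPS range of 157 to 214 CPM. The LPS response of Utp20 was larger in MIA offspring by log2 0.46 (95% interval 0.01 to 0.91), with an edgeR unadjusted p of 0.0388 and an adjusted p of 1.00. For Ccdc86 the difference between the LPS responses was 0.16 on the log2 scale (95% interval -0.28 to 0.60). The intervals for Gar1 were the widest, from -1.64 to 0.45 after saline. These tests missed the threshold, which does not show that members act alike in the 2 maternal groups.

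**Figure D5:**
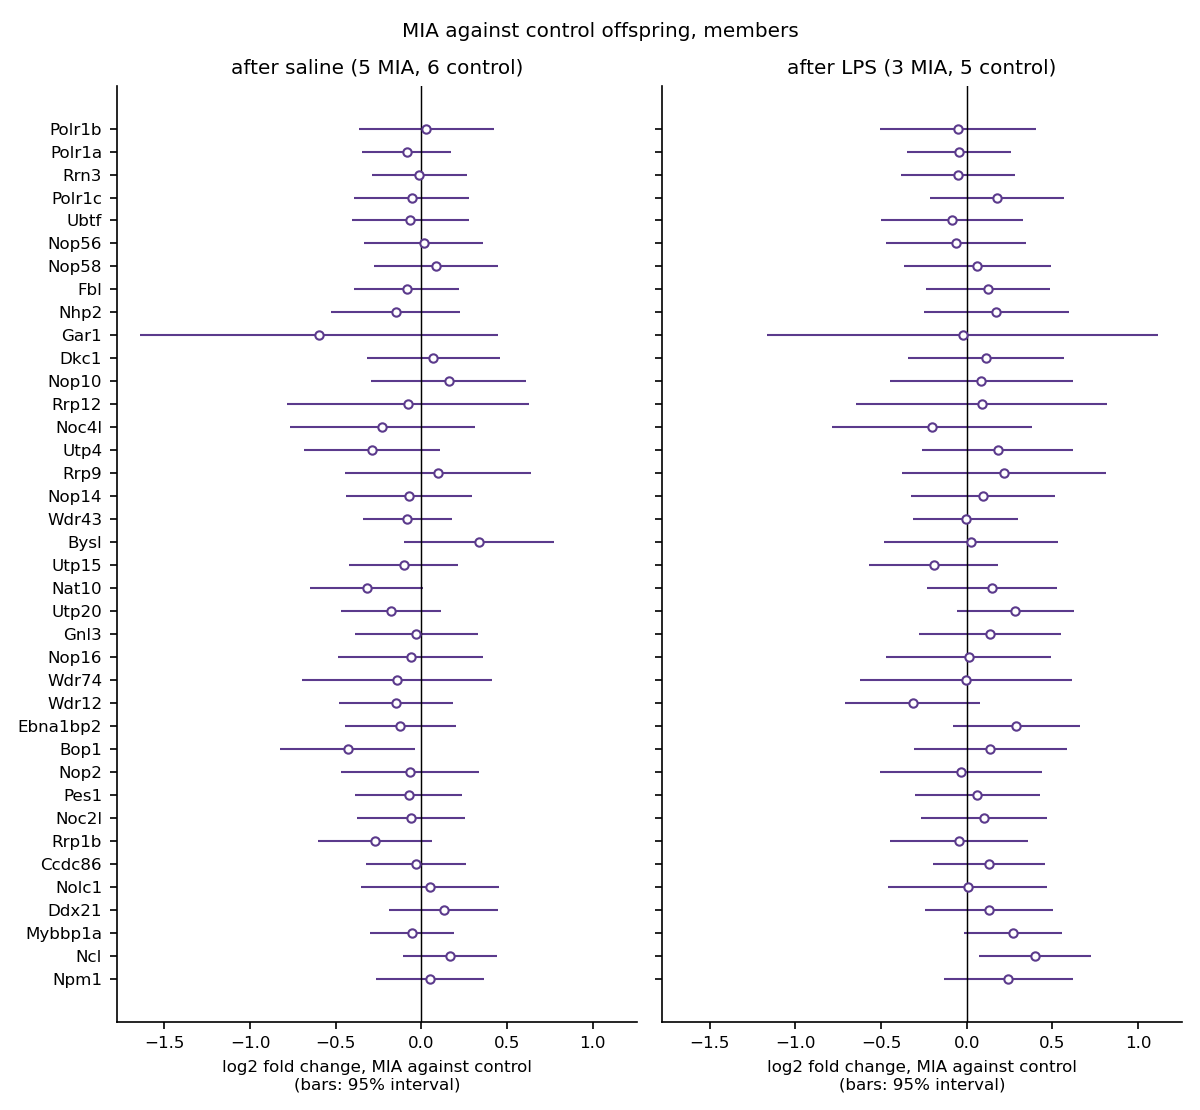
Log2 fold change of MIA against control offspring (horizontal, bars 95% interval) for each member after saline and after LPS. All points are open because no member passed; most intervals include 0, with Bop1 after saline (-0.83 to -0.04) and Ncl after LPS (0.07 to 0.72) as exceptions.

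Other genes of the same pathway were taken from a list of 131 ribosome assembly genes outside the 38. That list, too, was chosen with earlier results of these data known. In control offspring 93 of the 131 rose and none fell after LPS, with a median log2 fold change of 0.67. In MIA offspring 90 rose and none fell, with a median of 0.78. The corresponding shares of all genes called higher were 23.3% and 20.8%. By class in control offspring, 10 of 15 polymerase I genes, 4 of 11 snoRNP assembly genes, 32 of 42 genes of 40S assembly, 38 of 49 of 60S assembly and 9 of 14 exosome genes rose. None of the 131 was called in a comparison of MIA with control.

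Examples by class were the genes with the largest rise at a mean level of at least 3 on the log2 CPM scale. Polr1e, a polymerase I subunit, rose by log2 1.46 ± 0.24 in control and 1.64 ± 0.29 in MIA offspring. Tsr1, a 40S maturation factor, rose by 1.77 ± 0.19 and 1.89 ± 0.22, from a CON_SAL range of 5.67 to 12.4 CPM to a CON_LPS range of 22.2 to 33.1 CPM. In 60S assembly, Ftsj3, a methyltransferase, rose most in control offspring (1.82 ± 0.21) and Rrs1 most in MIA offspring (2.26 ± 0.25). Exosc1, a cap subunit of the RNA exosome, rose by 1.28 ± 0.15 and 1.35 ± 0.18. Ruvbl2, an ATPase of snoRNP assembly, had smaller values of 0.67 ± 0.23 and 0.71 ± 0.28, and in MIA offspring it did not pass with DESeq2 (adjusted p = 0.0604), with the ID number as a block (0.54, edgeR adjusted p = 0.0918), or without any 1 of MIA_LPS replicates 1, 3 and 4, MIA_SAL replicates 3, 4 and 5, CON_LPS replicate 3 and CON_SAL replicate 5. In control offspring Ruvbl2 did not pass without CON_SAL replicate 2 (edgeR adjusted p = 0.0530) or CON_LPS replicate 4 (edgeR adjusted p = 0.0759).

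The Myc and Max network, whose members pair with Max or its relative Mlx to bind E-boxes, moved in both directions. Of 13 listed genes 11 were measured. Myc rose by log2 1.70 ± 0.20 (edgeR adjusted p = 1.83e-07), from a CON_SAL range of 10.3 to 23.8 CPM to a CON_LPS range of 47.3 to 64.8 CPM. In MIA offspring Myc rose by 1.32 ± 0.23 (edgeR adjusted p = 7.11e-05). Max, its partner, rose by 0.64 ± 0.13 and 0.94 ± 0.16, and Mxd1, which competes with Myc for Max, by 1.14 ± 0.14 and 1.39 ± 0.16. Mlx rose in control offspring (0.62 ± 0.16), and its value of 0.45 ± 0.19 in MIA offspring did not pass (edgeR adjusted p = 0.0632), though it did without MIA_SAL replicate 1 or 2 and with limma's sample weights.

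Mycl, a Myc paralog, fell by 4.08 on the log2 scale in control offspring and by 3.56 in MIA offspring, from a CON_SAL mean of 12.2 CPM to a CON_LPS mean of 0.711 CPM. Mxi1, a Max partner that represses, fell by 0.82 and 0.93, and Mlxipl (ChREBP), a glucose-responsive Mlx partner, by 0.78 and 1.06. In control offspring the Mlxipl value did not pass with no batch term (edgeR adjusted p = 0.138). Mga, Mlxip, Mnt and Mxd4 did not pass in either maternal group. By DESeq2, however, Mnt (-0.62, adjusted p = 0.0372) and Mlxip (-0.40, adjusted p = 0.0321) were lower in control offspring and Mxd4 (-0.52, adjusted p = 0.0363) in MIA offspring, as they were with RLE and upper quartile scaling. Mnt in control offspring also passed without MIA_LPS replicate 1 or 2 or CON_LPS replicate 3. Mxd4 passed without CON_SAL replicate 5 in both maternal groups, and without MIA_SAL replicate 2 or MIA_LPS replicate 2 in MIA offspring. Mnt in MIA offspring was -0.66 without MIA_LPS replicate 2 (edgeR adjusted p = 0.0487). The direction of Myc and of the members was the same in both maternal groups, and whether one moves the other was not tested.

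Ribosomal RNA lacks a long poly(A) tail, so an oligo-dT library does not measure its synthesis. The share of counts from ribosomal RNA genes was 50.9 ± 1.83% (SD, n = 5) in CON_LPS and 51.3 ± 3.86% (SD, n = 6) in CON_SAL libraries (exact permutation test, two-sided, p = 0.827). It was 53.1 ± 2.45% (SD, n = 3) in MIA_LPS and 50.5 ± 3.50% (SD, n = 5) in MIA_SAL libraries (exact permutation test, two-sided, p = 0.357). These shares pool nuclear and mitochondrial genes. In control offspring the nuclear part was 46.7 ± 2.38% in CON_LPS and 48.0 ± 4.19% in CON_SAL libraries (exact permutation p = 0.571). The mitochondrial part was 4.16 ± 0.77% and 3.28 ± 0.62% (exact permutation p = 0.0519), opposite in direction. In MIA offspring the nuclear means were 48.5% after LPS and 46.7% after saline, and the mitochondrial means 4.62% and 3.76%. Nearly all nuclear counts came from a single gene. With totals that leave all ribosomal RNA genes out, 35 members were called higher in control and 36 in MIA offspring. The shares of all genes called higher were then 23.8% and 21.2%.

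Markers of other cells that moved with LPS are given beside the members' rise. The monocyte list rose in 6 of 7 measured genes in both maternal groups, while Ccr2 fell. Of 7 neutrophil genes measured, 4 rose and 1 fell in control offspring, and 6 rose and 1 fell in MIA offspring. The gene that fell, Csf3r, took most of the list's summed level, with means of 185 CPM in CON_SAL and 72.2 CPM in CON_LPS. The sum therefore went down, from 164 to 210 CPM over CON_SAL to 120 to 171 CPM over CON_LPS libraries. The neutrophil genes S100a8 and S100a9 went from means of 1.46 and 2.09 CPM in CON_SAL to 20.8 and 34.9 CPM in CON_LPS. Mpo was at 0 in all batch 1 libraries but 1 CON_LPS library, at 0.479 CPM. Of 6 astrocyte genes measured Gfap rose and Slc1a3 fell in both maternal groups, and the list's sum ran from 157 to 310 CPM in CON_SAL and from 111 to 146 CPM in CON_LPS. Among 7 border-associated macrophage genes F13a1 rose and Mrc1 fell in both, with Lyve1 lower in MIA offspring too, and the sum ran from 21.1 to 56.8 CPM and from 18.7 to 46.1 CPM. Pecam1 was the only 1 of 5 endothelial and mural genes called, and fell in both, with a list sum of 17.2 to 29.6 CPM in CON_SAL and 8.60 to 15.2 CPM in CON_LPS. Of 3 erythroid and choroid plexus genes 2 fell in control and none passed in MIA offspring, and none of 7 neuron or 5 oligodendrocyte genes was called. Of 9 proliferation genes measured, Bub1b, Mcm6 and Pcna rose in control offspring and Mki67 fell by 1.20 on the log2 scale. The same genes moved that way in MIA offspring, with Mcm2 higher there too. The part of these cells or of cell division in the members' rise was not tested.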

How the data were processed

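The authors deposited estimated counts per gene, not normalized, for 21 libraries. The submitters' processing notes list STAR, RSEM and DESeq2 with no version or role, and no source used here gives the genome build or strand setting. Expected counts were rounded to whole numbers, and genes were kept with edgeR's expression filter (count of at least 10, total of at least 15), leaving 14741 genes. A single edgeR 4.0.16 quasi-likelihood model (R 4.3.3, TMM scaling, robust fit) held 1 mean per group plus batch, over 20 libraries with 15 residual degrees of freedom. Because the batch 2 library has its own term, group differences are estimated from the 19 batch 1 libraries. The batch 2 library, MIA_LPS replicate 4, still enters the expression filter and the scaling. Without it 15141 genes were tested. P-values were adjusted by Benjamini-Hochberg over all genes, and genes were called at an adjusted p under 0.05. No p was adjusted over the list alone. Standard errors were derived from each log2 fold change and its test statistic. Intervals are 95% and use the 15 residual degrees of freedom. The test also draws on spread shared across genes, so an interval and its p-value can differ near the threshold. Levels are means with SD. The reads carry no molecular identifiers per the labels' protocols, so precision covers library spread, not molecules. Libraries had 9.85 to 19.0 M counts.

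The members, the other assembly genes, the Myc network and the marker lists were chosen with earlier results of these data known. Genes outside the members were named by a rule: all measured Myc network genes, and per class the largest rise among assembly genes called whose mean log2 CPM was 3 or more. Symbols were matched for 55141 of 55487 identifiers. Gene models came from GENCODE and promoters from RefSeq (both GRCm38), which need not be the authors' build. Alternatives covered RLE and upper quartile scaling and DESeq2 1.42.0. They also covered limma 3.58.1 voom with sample weights or with the ID number as a random block. Further alternatives were other filters, totals without ribosomal RNA genes, no batch term, the excluded library kept, blocks, and each library left out. The code was tested on simulated counts. Replicate numbers did not pair the libraries: same-numbered libraries had correlations of their deviations from group means between -0.136 and 0.222.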

Additional observations from a re-analysis of the deposited data

Results flagged for a closer look

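Of the values examined, 7 lay far from the other libraries of their group, by the gap to the nearest library relative to the group's range. In all, 117 groups were looked at, and chance alone gives about 1 in 20. MIA_LPS, with 3 libraries of batch 1, was too small for this check and was not looked at. After LPS in control offspring, Polr1c had 14.7 CPM in replicate 5, against 8.98 to 10.5 CPM in the other 4 libraries. Gnl3 was low in that same library, at 48.2 CPM against 65.2 to 70.9 CPM. Ebna1bp2 was low in CON_LPS replicate 1, at 15.6 CPM against 19.9 to 20.8 CPM, and Noc2l was high in CON_LPS replicate 3, at 36.0 CPM against 27.3 to 29.4 CPM. Among the saline libraries, Bysl had 7.88 CPM in CON_SAL replicate 2 against 2.85 to 4.25 CPM. Ncl had 115 CPM in CON_SAL replicate 4 against 82.8 to 93.8 CPM, and 122 CPM in MIA_SAL replicate 2 against 96.4 to 102 CPM. The single batch 2 library is MIA_LPS replicate 4, whose level enters no contrast of the main model. It still takes part in filtering and scaling. In it, 34 of the 38 members were above every saline library of batch 1. The share of all genes above them was not computed, so this count has no background. That library had counts in 12285 genes, against 18035 in MIA_LPS replicate 1, and 61.5% of its counts came from ribosomal RNA genes. Batch and library cannot be told apart there.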

How the results depend on the processing

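The number of members called higher after LPS ran from 34 to 35 over the alternatives in control and from 34 to 36 in MIA offspring. Over the same alternatives 12.7 to 25.7% and 10.5 to 23.6% of all genes were called higher. Leaving out each library in turn gave 35 to 36 and 32 to 36, against 21.2 to 24.2% and 16.4 to 21.4% of all genes. No member was called lower, and none was called in a comparison of MIA with control, in any of these. Among the other assembly genes, the number called lower after LPS was 0; it became 1 in control offspring with RLE scaling, upper quartile scaling and DESeq2, and in MIA offspring 1 with RLE scaling and 2 with upper quartile scaling, DESeq2 or no batch term. Leaving out libraries gave 0 to 1 lower in control and 0 to 2 in MIA offspring, and 82 to 94 and 75 to 92 higher. The difference in the share of ribosomal RNA gene counts, LPS minus saline, was -0.406 percentage points in control offspring and ranged from -1.29 to 0.513 as each library was left out, so its sign depends on single libraries: it was 0.00107 without CON_LPS replicate 1, and 0.0486, 0.215 and 0.513 without CON_SAL replicate 2, 4 or 5. Mnt after LPS in MIA offspring was 0.07, and ranged from -0.66 without MIA_LPS replicate 2 to 0.36 without MIA_LPS replicate 1. With the replicate number as a replicate block, 35 members were called higher in each maternal group, against 22.2% and 19.9% of all genes. Of the other assembly genes 84 and 87 were called higher in place of 93 and 90. Ruvbl2 in MIA offspring did not pass there (edgeR adjusted p = 0.103). The replicate number as block changed no member's call. With the ID number as block instead, 35 and 34 members were called higher, against 20.4% and 20.1% of all genes. In MIA offspring Gar1 and Nop10 then lost their calls and Bysl gained a call. Causes were not tested. Scaling moved the median of all genes by less than 0.1 on the log2 scale. Depth limits Gar1, whose CON_SAL libraries had 0.278 to 1.75 CPM.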
